A study of Mus musculus with 4 samples.

Results

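Interferon-induced genes and the factors that control them were examined in cardiac endothelial cells, as 78 genes among the 38087 of the deposited tables joined together. Members were chosen by gene symbol: all symbols starting with Ifi, Oas or Isg, the numbered Gbp, Irf and Stat genes, and Mx1, Mx2, Rsad2, Usp18, Bst2, Igtp, Irgm1, Xaf1, Cmpk2, Rtp4 and Zbp1. The rule uses names and no measured value, though it was set with earlier results of these data known. RNA sequencing covered 2 libraries of Gata4 KO cells and 2 of Control cells, sorted from heart ventricles of healthy mice as eGFP-positive, CD31-positive cells.

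All 4 libraries came from C57BL/6 mice with a Tie2-CreERT2 transgene, a tamoxifen-activated Cre recombinase under Tie2 control, and a Cre-dependent eGFP reporter in the Rosa26 locus. Gata4 KO mice additionally carried loxP-targeted Gata4, the gene of a zinc-finger transcription factor. Every group, Control included, ate tamoxifen chow (40 mg/kg body weight) for 4 weeks, starting at 4 weeks of age, and cells were taken at 8 weeks. Library names give a single number in Gata4 KO and joined numbers in Control (1 plus 2, 5 plus 7, although the title of the second Control library gives only 5), which may mean that Control cells were pooled from several mice. Tie2 is also active in some blood cells, and whether replicate libraries came from separate mice is not stated. If they did not, the p-values measure technical spread alone.

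Interferons are secreted antiviral and immune signals. Type I interferons bind the IFNAR receptor and act through the kinases JAK1 and TYK2 on a complex that holds STAT2 and IRF9 and binds the interferon-stimulated response element (ISRE) in promoters. Type II interferon, interferon-gamma, binds the IFNGR receptor and acts through JAK1 and JAK2, and genes it induces often carry the gamma-activated site (GAS). Endothelial cells carry both receptors, and many interferon-induced genes have a basal level without infection.

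Promoters of members are shown here because these 2 elements link the genes to the factors described further on. RefSeq promoters on GRCm38.p6 (250 bases before to 50 bases after the transcript start) were matched for 56 of the 78 members. The ISRE core (GAAANN followed by GAAA, searched on both strands) was present in 23 of the 56 (41.1%), against 3.99% of the 27025 genes of the whole promoter table. The GAS core TTCNNNGAA, which is its own reverse complement in the fixed letters, was present in 15 of the 56 (26.8%), against 9.55% of all genes. Both were present in 7 members, and the cores may overlap each other, as in Bst2. Gbp5, 1 of the 7, is counted from a RefSeq promoter (chr3:142496684-142496983) far outside the gene as GENCODE annotates it (from 142594847). Capitals mark the cores in the sequences. They are the promoters of Ifit3 (chr19:34583279-34583578, plus strand) and Isg15 (chr4:156200769-156201068, minus strand), Oas1g (chr5:120887564-120887863, minus strand), Ifi205 (chr1:174031706-174032005, minus strand) and Ifitm6 (chr7:141016843-141017142, minus strand). They were picked to show a gene with higher values in Gata4 KO, one with nearly equal values, 2 with lower values, and the member with the largest difference, which holds a GAS core and no ISRE core.
Ifit3: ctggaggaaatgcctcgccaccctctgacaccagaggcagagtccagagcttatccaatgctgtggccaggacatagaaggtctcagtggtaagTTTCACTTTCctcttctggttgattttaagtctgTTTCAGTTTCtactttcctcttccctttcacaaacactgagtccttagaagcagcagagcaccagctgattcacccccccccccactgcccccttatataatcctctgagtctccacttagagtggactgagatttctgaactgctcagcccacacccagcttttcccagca
Isg15: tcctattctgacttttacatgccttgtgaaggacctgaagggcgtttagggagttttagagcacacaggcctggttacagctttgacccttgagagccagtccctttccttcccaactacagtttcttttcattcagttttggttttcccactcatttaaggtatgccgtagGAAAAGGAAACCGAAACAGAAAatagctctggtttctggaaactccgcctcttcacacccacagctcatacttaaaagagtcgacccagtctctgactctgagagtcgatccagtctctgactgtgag
Oas1g: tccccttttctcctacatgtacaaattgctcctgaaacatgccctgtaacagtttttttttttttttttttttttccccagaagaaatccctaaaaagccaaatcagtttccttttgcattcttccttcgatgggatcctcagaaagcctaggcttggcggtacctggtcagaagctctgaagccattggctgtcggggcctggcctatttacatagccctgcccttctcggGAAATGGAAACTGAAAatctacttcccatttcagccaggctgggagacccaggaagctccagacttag
Ifi205: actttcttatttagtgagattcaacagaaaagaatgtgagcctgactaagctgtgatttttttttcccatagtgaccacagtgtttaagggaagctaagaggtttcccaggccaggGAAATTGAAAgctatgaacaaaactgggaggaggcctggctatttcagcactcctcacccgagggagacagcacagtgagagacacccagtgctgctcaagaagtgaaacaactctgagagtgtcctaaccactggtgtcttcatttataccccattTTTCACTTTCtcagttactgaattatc
Ifitm6: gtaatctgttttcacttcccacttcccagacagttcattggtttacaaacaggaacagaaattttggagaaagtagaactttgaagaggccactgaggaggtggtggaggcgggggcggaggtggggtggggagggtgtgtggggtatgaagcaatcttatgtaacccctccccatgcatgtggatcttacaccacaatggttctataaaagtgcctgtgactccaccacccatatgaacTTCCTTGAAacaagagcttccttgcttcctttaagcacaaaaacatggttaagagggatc
With the start base counted as 0, the ISRE cores began at -156 and -122 in Ifit3, at -78, -72 and -66 in Isg15, at -18 and -12 in Oas1g, and at -134 and 23 in Ifi205. The GAS core of Ifitm6 began at -10 from a RefSeq start that lies inside the gene as GENCODE annotates it. A core in a promoter is a match of letters and does not show that a factor bound there.

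**Figure D1:**
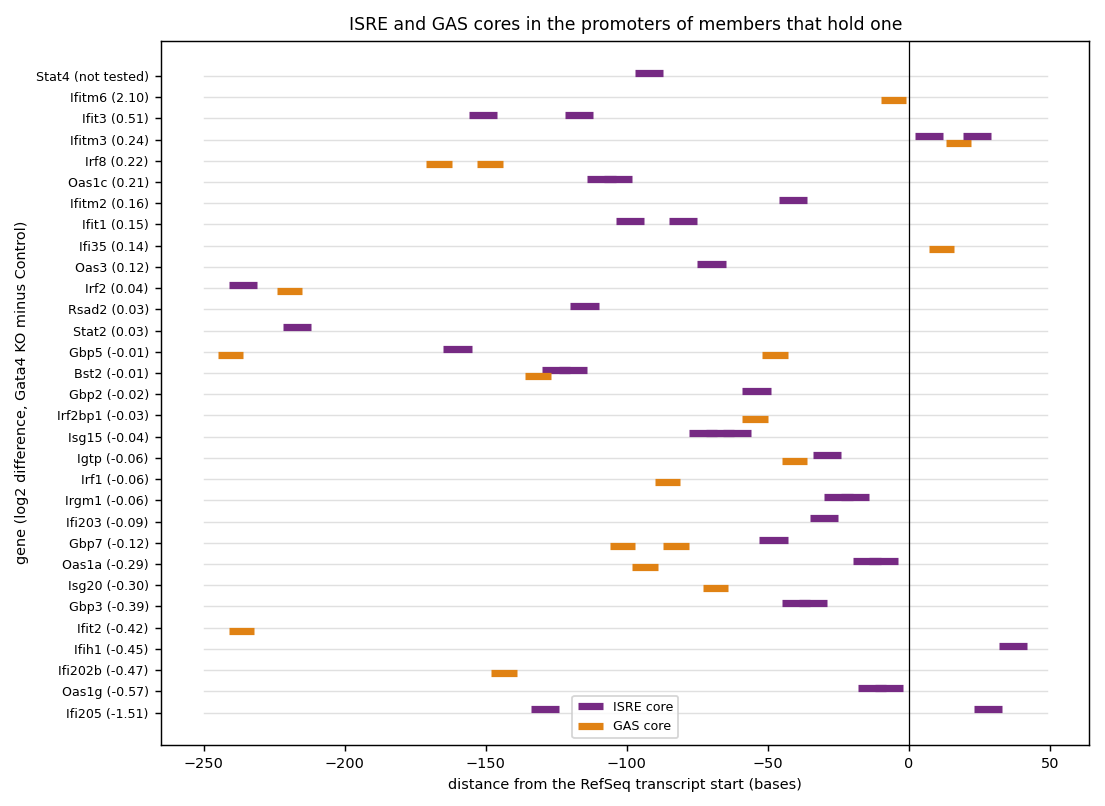
ISRE cores (purple) and GAS cores (orange) by distance in bases from the RefSeq transcript start, 1 line per member that holds a core, ordered by the log2 difference between Gata4 KO and Control given in parentheses, with the untested Stat4 on top. Cores occurred in members at the top and at the bottom of this order, from Ifitm6 at 2.10 to Ifi205 at -1.51.

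Values are log2 values that the authors centred on each gene's median over the 4 libraries, so levels of different genes cannot be compared and sequencing depth is unknown. A member was tested if its value varied between libraries. This held for 67 of the 78 members, against 14470 of all 38087 genes. The other 11 had the same value in every library: Mx1, Oas1d, Oas1e, Oas1f, Oas1h, Gbp1, Gbp8, Gbp11, Ifitm7, Ifitm10 and Stat4. In 6 members (among them Ifi202b, Ifi27l2b, Irf4, Oas3 and Zbp1), 2 or 3 libraries shared the lowest value. For a gene with a whole group at this floor, the fold is given as "at least", and its error and p are likely understated.

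No interferon-induced gene passed the test between Gata4 KO and Control cells, and most differences were small. By limma with Benjamini-Hochberg adjustment over all 14470 genes, 0 members passed 0.05 in either direction, beside 0% of all genes (0 genes), and the smallest adjusted p of a member was 0.331 (Ifitm6). Without genes tied at their lowest value, 11894 genes were tested, 51 passed, and Ifitm6 had an adjusted p of 0.0529. At an unadjusted p of 0.05, 1 member had higher values in Gata4 KO (1.49%, against 2.76% of all genes) and 6 had lower values (8.96%, against 5.36% of all genes). Both Gata4 KO values lay above both Control values in 9 members (13.4%, against 15.7% of all genes) and below both in 14 (20.9%, against 17.3%). The difference was under 0.5 on the log2 scale (1.41-fold) in 54 members, 80.6% of those tested, against 78.5% of all genes. The median difference was -0.055 over the members and -0.0088 over all genes. These shares lay near those of all genes.

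**Figure D2:**
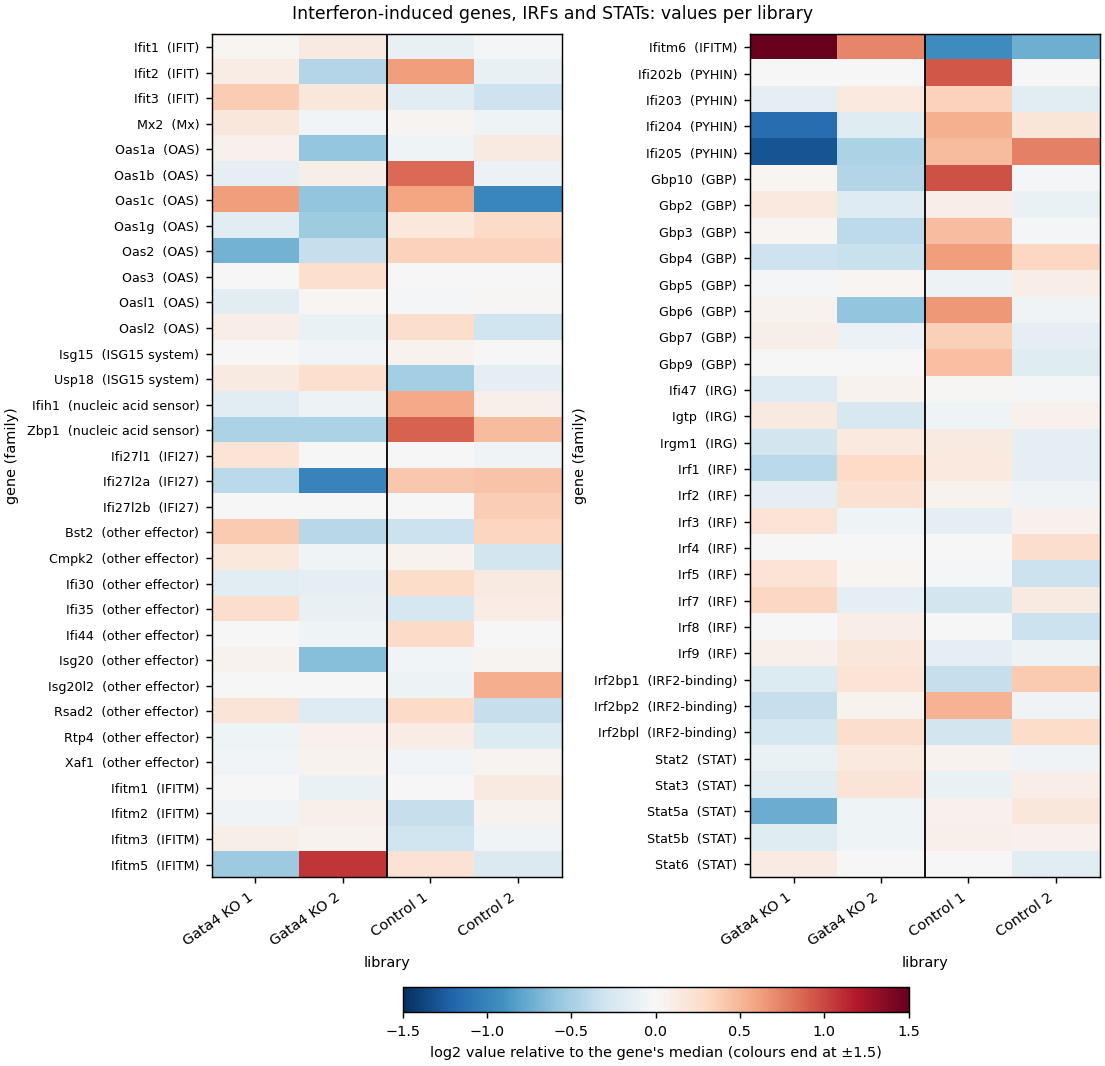
Centred log2 values of 65 tested members (rows, with their family) in the 2 Gata4 KO libraries and the 2 Control libraries (columns). Most rows are pale, while Ifitm6 is high in both Gata4 KO libraries and Ifi204, Ifi205, Zbp1, Ifi27l2a, Oas2 and Gbp4 are low in both.

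The libraries differed in more than the Gata4 label, and these differences lie under every comparison given here. Gata4 itself had -0.14 and -0.46 in Gata4 KO, against 0.48 and 0.14 in Control, a difference of -0.61 (standard error 0.26, limma adjusted p = 0.663). Xist had 2.76 and 3.71 in Gata4 KO and sat at its floor in both Control libraries, whereas the Y-linked genes Ddx3y, Eif2s3y, Uty and Kdm5d sat at theirs in both Gata4 KO libraries. Sex of the mice and genotype therefore cannot be told apart, although no member with coordinates lies on chromosome X or Y. Macrophage markers were lower in Gata4 KO in 10 of 12 tested (9 below both Control values, 75% against 17.3% of all genes), with list means of -0.56 and -0.30 in Gata4 KO, against 0.59 and 0.30 in Control. Fibroblast markers were below both Control values in 8 of 8, with means of -0.35 and -0.91 in Gata4 KO, against 1.21 and 0.35 in Control. Cardiomyocyte markers were lower in 6 of 6 (3 below both Control values, 50%), with means of -0.032 and -0.47 in Gata4 KO, against 0.25 and 0.077 in Control. Endothelial markers were above both Control values in 5 of 10 (50%, against 15.7% of all genes) and below both in 0. Their means were 0.13 and 0.055 in Gata4 KO, against -0.16 and -0.15 in Control. In bulk libraries, fewer cells of a type and less RNA per cell cannot be told apart.

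Genes of the type I group lay on both sides of 0. The group held 34 members by textbook response to type I interferon, of which 29 were tested. Their median log2 difference was 0.02, with 16 above 0 and 13 below. Equal numbers, 5 and 5 (17.2% each), had both Gata4 KO values above or below both Control values, against 15.7% and 17.3% of all genes. Means over the group were 0.044 and -0.14 in Gata4 KO, against 0.094 and -0.024 in Control, so the libraries of the 2 groups overlapped. Direction was not stable, since the median was 0.03 when Gata4 KO 2 was dropped but -0.062 when Gata4 KO 1 was, -0.049 when Control 2 was and -0.013 when Control 1 was.

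Genes of the type II group lay mostly a little below Control. Of 16 such members 13 were tested, and 12 of the 13 had a difference below 0 (92.3%, against 51.1% of all genes). The 8 tested GBP genes described further on, all below 0, are among these 13, so their count is no separate result. The median was -0.12 (1.08-fold lower for Gbp7, the member at that median). Of these members, 2 had both Gata4 KO values below both Control values (15.4%, against 17.3% of all genes), and 1, Irf8, had both above. Means over the group were -0.038 and -0.16 in Gata4 KO, against 0.30 and -0.031 in Control. The Control 1 library was the highest of the 4 in 7 of the 13 (53.8%, against 34.2% of all genes), and Control 2 was nearly level with Gata4 KO 1. The median was -0.36 without Control 2 and -0.10 without Control 1. No test sets the type I group against the type II group, because the groups were made with results of these data known.

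**Figure D3:**
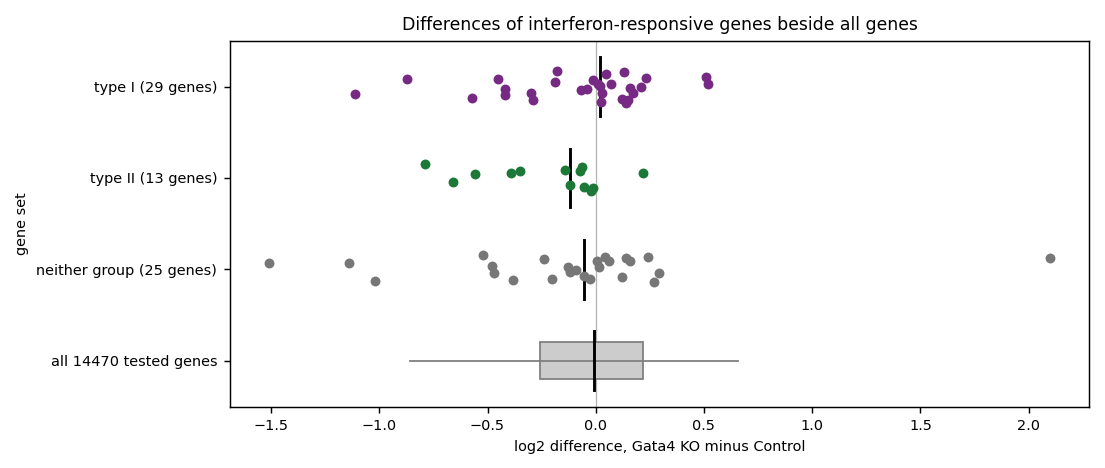
Log2 differences, Gata4 KO minus Control, of single members (points) by response group, with the median as a black bar. For all 14470 genes the box spans the 25th to 75th percentiles (-0.26 to 0.22), and the line spans the 5th to 95th (-0.86 to 0.66). Medians were 0.02 for type I, -0.12 for type II and -0.0088 for all genes.

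The 3 tested IFIT genes encode proteins that bind viral RNA or translation factors. Ifit3 (chromosome 19, 34583531 to 34588731) had 0.38 and 0.17 in Gata4 KO, against -0.17 and -0.31 in Control. Both Gata4 KO libraries were above both Control libraries, with a difference of means of 0.51 (1.43-fold, standard error 0.23, limma adjusted p = 0.678). Ifit1 also had no overlap, with a smaller difference of 0.15. Ifit2 went the other way at -0.42, with Control 1 at 0.63 far above Control 2 at -0.11, and its groups overlapped. These 3 genes lie close together on chromosome 19 and did not share a direction.

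Feedback on the type I receptor was represented by Usp18, which removes the ubiquitin-like protein ISG15 from its targets and blocks receptor signalling. Usp18 had 0.14 and 0.25 in Gata4 KO, against -0.51 and -0.14 in Control, a difference of 0.52 (1.43-fold, standard error 0.24, limma adjusted p = 0.721). Both Gata4 KO values were higher, though the difference was 0.33 without Control 1. Isg15 itself had 0.0036 and -0.036 in Gata4 KO, against 0.055 and -0.0036 in Control. That is a difference of -0.042 in the gene whose promoter holds 3 ISRE cores. Its 95% interval ran from -0.59 to 0.51, so near-equal values do not show that Isg15 was unaffected.

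OAS enzymes make the oligoadenylates that activate RNase L, and 8 of their 12 genes were tested. The lowest was Oas2 (chromosome 5, 120730333 to 120749853), with -0.71 and -0.34 in Gata4 KO, against 0.34 and 0.34 in Control. Its Control libraries were nearly equal, and the difference was -0.87 (1.82-fold lower in Gata4 KO, standard error 0.24, limma adjusted p = 0.463). Oas1g had -0.16 and -0.53 in Gata4 KO, against 0.16 and 0.29 in Control, a difference of -0.57 (adjusted p = 0.673). Among the 8, these 2 alone showed no overlap (25% below both Control values, against 17.3% of all genes). The largest positive difference, 0.21 in Oas1c, came with a standard error of 0.66, since its libraries ran from 0.63 and -0.59 in Gata4 KO to 0.59 and -0.98 in Control. Oas1a, Oas1b, Oasl1 and Oasl2 overlapped, at -0.29, -0.42, -0.07 and 0.02, and Oas3 was above its lowest value in Gata4 KO 2 only. The gene annotation lists Oas1b as a polymorphic pseudogene. OAS genes lie side by side on chromosome 5 with similar sequences, and counting of shared reads is not given in the sources used here, so a split between Oas1a and Oas1g is uncertain.

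Both tested members grouped as nucleic acid sensors had lower values in Gata4 KO. Sensing genes outside the members lay on both sides of 0: Dhx58 (0.45) and Tmem173 (0.34) were above both Control values, and Ticam1 (-0.34) was below both. Zbp1 (chromosome 2, 173206612 to 173218923), which senses Z-form nucleic acids and triggers necroptosis, was tied at its lowest value of -0.47 in both Gata4 KO libraries, against 0.88 and 0.47 in Control. It was at least 2.21-fold lower (difference -1.14, standard error 0.25, limma adjusted p = 0.382). Ifih1, which encodes the RNA sensor MDA5, had -0.17 and -0.075 in Gata4 KO, against 0.57 and 0.075 in Control. Its groups did not overlap, though Gata4 KO 2 and Control 2 lay close together (difference -0.45, adjusted p = 0.829).

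Ifi27l2a (chromosome 12, 103442167 to 103443680) encodes a small hydrophobic interferon-alpha-induced protein. It had -0.40 and -1.0 in Gata4 KO, against 0.40 and 0.43 in Control, a difference of -1.11 (2.17-fold lower in Gata4 KO, standard error 0.28, limma adjusted p = 0.424). Its neighbours differed from it: Ifi27l1 was slightly higher in both Gata4 KO libraries (0.13), and Ifi27l2b was above its lowest value in Control 2 only.

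Other effectors of the type I response lay close to 0. Rsad2, which encodes the antiviral enzyme viperin, differed by 0.027, its chromosome 12 neighbour Cmpk2, a mitochondrial nucleotide kinase gene, by 0.17 (0.0061 without Control 2), and Bst2, which encodes tetherin, by -0.015. All 3 overlapped, and the 95% interval of Rsad2 ran from -0.79 to 0.84. Xaf1, Rtp4, Ifi35, Mx2, Isg20 and Isg20l2 overlapped too, with differences of 0.012, 0.049, 0.14, 0.07, -0.30 and -0.24. Isg20l2 matches the name rule but encodes a nuclease of ribosome formation. Ifi44 (-0.18) was below both Control values, with a nearest pair of -0.011 in Gata4 KO 1 and 0.011 in Control 2.

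IFITM proteins sit in membranes and hinder virus entry, and 5 of 7 genes were tested. Ifitm6 (chromosome 7, 141015699 to 141017924) had the largest difference of all members, with 1.79 and 0.73 in Gata4 KO, against -0.94 and -0.73 in Control. It was 4.28-fold higher in Gata4 KO (difference 2.10, standard error 0.40, 95% interval 1.06 to 3.13, limma adjusted p = 0.331). Without each library in turn the difference was between 1.57 and 2.62. Ifitm6 is known in mouse as a gene of myeloid cells. Markers of monocytes and neutrophils, of which 4 of 6 varied, had means of 0.24 and -0.10 in Gata4 KO, against -0.51 and 0.072 in Control, with 0 of 4 free of overlap. Ccr2 and Plac8 had the same value in every library. Their part in the Ifitm6 difference was not tested. Ifitm3, the broad antiviral member, was higher in both Gata4 KO libraries by 0.24 (0.12 without Control 1), Ifitm2 overlapped (0.16), and Ifitm1 had a difference of -0.12 (-0.054 without Control 2). Ifitm5, a bone-related gene, had values of -0.54 and 1.07 within Gata4 KO alone.

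**Figure D4:**
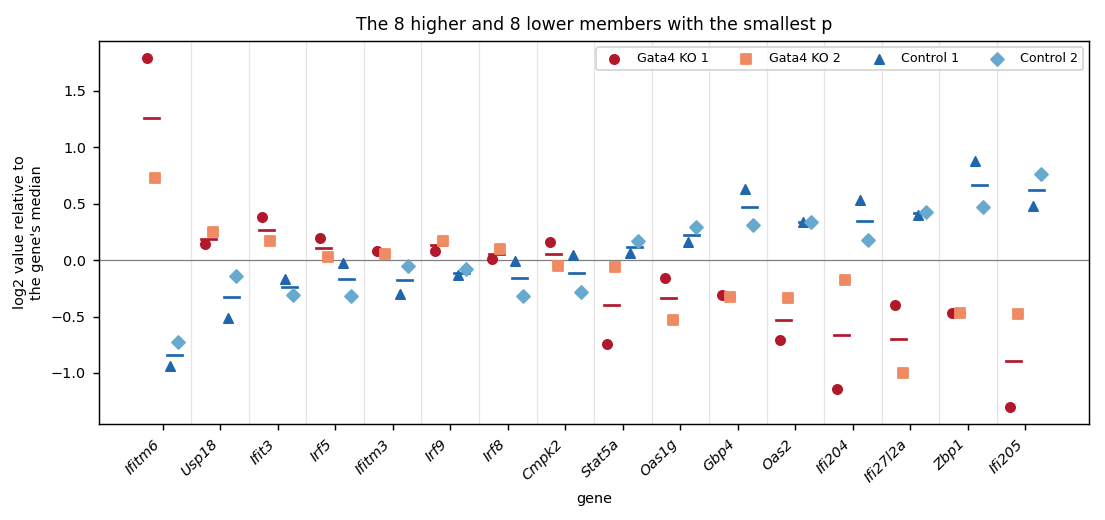
Centred log2 values per library of the 8 members with higher and the 8 with lower values in Gata4 KO that had the smallest p, with group means as bars. Ifitm6 lies apart at the left (1.79 and 0.73 in Gata4 KO, -0.94 and -0.73 in Control). Cmpk2 is the member shown whose groups overlap.

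PYHIN proteins bind DNA in the nucleus or cytosol, and all 4 of their genes had negative differences. Ifi205 (chromosome 1, 174011998 to 174031810) had -1.30 and -0.48 in Gata4 KO, against 0.48 and 0.76 in Control. This was 2.85-fold lower in Gata4 KO (difference -1.51, standard error 0.35, 95% interval -2.41 to -0.62, limma adjusted p = 0.396). Ifi204, which lies in the same cluster, had -1.14 and -0.18 in Gata4 KO, against 0.53 and 0.18 in Control, a difference of -1.02 (adjusted p = 0.601) and of -0.53 without Gata4 KO 1. Both genes were lowest in Gata4 KO 1. Ifi203 overlapped (-0.092), and Ifi202b was above its lowest value in Control 1 only. Sequence is similar among these genes, so a split between Ifi204 and Ifi205 is uncertain. Family means were -0.65 and -0.13 in Gata4 KO, against 0.57 and 0.20 in Control.

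Macrophages express PYHIN genes strongly, and the mean of the macrophage markers put the libraries in the same order as the PYHIN mean. Fibroblast markers were lower in Gata4 KO as well, 8 of 8 below both Control values. Their mean was lowest in Gata4 KO 2 (-0.91, against -0.35 in Gata4 KO 1). The receptor gene Csf1r had -0.46 and -0.28 in Gata4 KO, against 0.88 and 0.28 in Control, and the complement gene C1qb had -0.97 and -0.46 in Gata4 KO, against 0.46 and 0.74 in Control. Not every marker followed: Cd68 and Itgam had differences of 0.27 and 0.053 and Aif1 one of -0.45, and all 3 overlapped. Some leukocytes also carry CD31. Of 13 macrophage markers listed, Fcgr1 had the same value in every library and Cd163 was tied at its lowest value in both Gata4 KO libraries. The part of macrophages, other leukocytes or fibroblasts in the lower values of Ifi204, Ifi205, Zbp1, Ifi27l2a and Oas2 was not tested. Of these genes, Ifi27l2a had its lowest value in Gata4 KO 2 (-1.0, against -0.40 in Gata4 KO 1), unlike the macrophage mean. Siglech and Ccr9, which mark plasmacytoid dendritic cells, a main source of type I interferon, had the same value in every library and were not tested. Of the other 2 genes on that marker list, Bst2 overlapped (-0.015) and Irf8 was above both Control values (0.22).

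**Figure D5:**
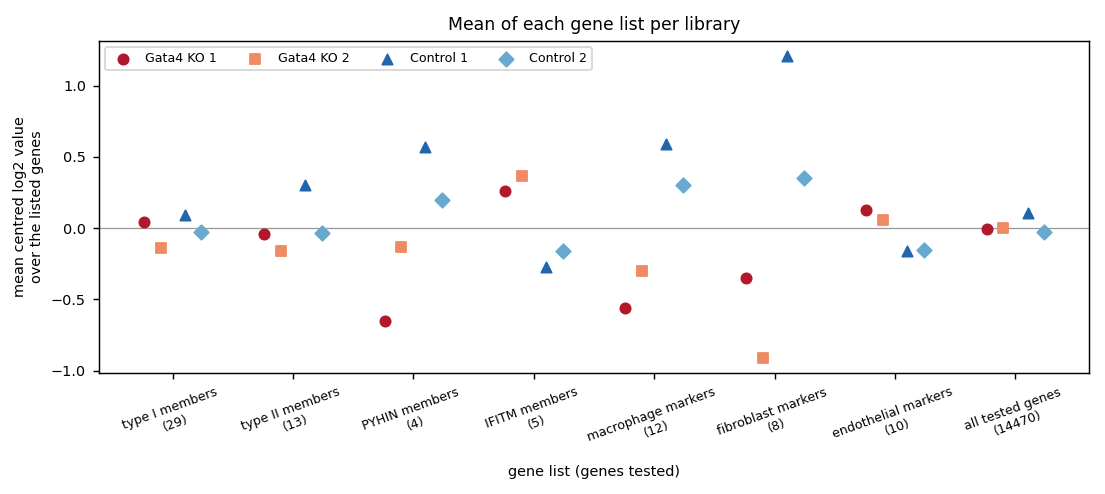
Mean centred log2 value over each gene list in each library (2 Gata4 KO, 2 Control), with the number of tested genes under each name. PYHIN members (-0.65 and -0.13 in Gata4 KO, 0.57 and 0.20 in Control) and macrophage markers are in the same library order, while type I members overlap between groups.

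GBP genes encode large GTPases that attack vacuoles of pathogens and are induced chiefly by interferon-gamma. All 8 tested had a difference below 0 (100%, against 51.1% of all genes), from -0.79 to -0.011, with a median of -0.27. The lowest was Gbp4 (chromosome 5, 105115767 to 105139586), with -0.31 and -0.33 in Gata4 KO, against 0.63 and 0.31 in Control. It was 1.73-fold lower in Gata4 KO (standard error 0.23, limma adjusted p = 0.491). Gbp4 was the only GBP gene without overlap (12.5% of the 8, against 17.3% of all genes below both Control values). Among the other 7, Control 2 lay between the Gata4 KO libraries in 4 and below both in 2. Gbp10, Gbp6 and Gbp3 had differences of -0.66, -0.56 and -0.39, each with Control 1 as the high library (0.95, 0.65 and 0.46) and Gata4 KO 2 as the low one. The 4 genes on chromosome 3 (Gbp2, Gbp3, Gbp5 and Gbp7) had a median of -0.067, and the 3 tested on chromosome 5 with coordinates (Gbp4, Gbp6 and Gbp9) one of -0.56. Near-identical copies exist among the chromosome 5 genes, so their separate values are uncertain.

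The 3 members that encode small GTPases of the same defence had smaller differences. Igtp, Irgm1 and Ifi47 had differences of -0.055, -0.063 and -0.071, and all 3 overlapped. Outside the members, the small GTPase genes Iigp1, Irgm2, Tgtp1 and Tgtp2 were below both Control values (-0.46, -0.28, -0.38 and -0.46). They are counted further on among genes induced by interferon-gamma. Ifi30, which encodes a lysosomal thiol reductase for antigen processing, had -0.17 and -0.13 in Gata4 KO, against 0.28 and 0.13 in Control, a difference of -0.35 (adjusted p = 0.842) without overlap.

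Of the IRF factors, all 9 were tested and 0 passed. Irf9, the DNA-binding part of the type I complex, had 0.078 and 0.17 in Gata4 KO, against -0.13 and -0.078 in Control, a difference of 0.23 (standard error 0.21, adjusted p = 0.858). Irf5, an inducer of inflammatory cytokines, and Irf8, a myeloid factor, were higher in both Gata4 KO libraries as well, by 0.29 and 0.22. Among the 9, only Irf9, Irf5 and Irf8 were above both Control values (33.3%, against 15.7% of all genes). These 3 differences were about the size of their standard errors (0.24 for Irf5 and for Irf8), and without Control 2 they were 0.14 in Irf5 and 0.061 in Irf8. Irf7 and Irf3, the kinase-activated inducers of interferon genes, overlapped at 0.16 and 0.12, as did the activator Irf1 (-0.056, with -0.41 and 0.30 in Gata4 KO) and its antagonist Irf2 (0.044). Irf4, a lymphoid factor, was above its lowest value in Control 2 only. The corepressor genes Irf2bp1, Irf2bp2 and Irf2bpl overlapped, at -0.026, -0.38 and 0.0049.

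Of the STAT factors, 6 of 7 were tested and 0 passed. Stat2, which pairs with Irf9 in the type I complex, differed by 0.026 with a 95% interval of -0.56 to 0.62. It overlapped, as did Stat3 (0.015), a factor of cytokine signalling, and Stat6 (0.14, and 0.06 without Control 2). Stat5a had -0.74 and -0.059 in Gata4 KO, against 0.059 and 0.17 in Control, a difference of -0.52 (adjusted p = 0.828) and of -0.18 without Gata4 KO 1. Its chromosome 11 neighbour Stat5b had -0.18 and -0.068 in Gata4 KO, against 0.082 and 0.068 in Control, a difference of -0.20. Both STAT5 genes, which serve cytokine receptors, were below both Control values (33.3% of the 6, against 17.3% of all genes), and neither passed.

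Upstream of these genes, the tested receptor and kinase genes had small differences with wide intervals. Listed interferon genes (Ifna1, Ifna2, Ifna4, Ifnb1, Ifng, Ifnk and Ifne) had the same value in every library. They were therefore not tested and show neither a difference nor its absence. The receptor genes Ifnar1, Ifnar2, Ifngr1 and Ifngr2 had differences of 0.25, 0.14, -0.16 and 0.018, and of these Ifnar2 was without overlap. The Ifnar1 difference was 0.05 without Control 2, and its 95% interval over all 4 libraries ran from -0.41 to 0.91. The kinase genes Jak1, Jak2 and Tyk2 had 0.18, -0.027 and -0.039 and overlapped.

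Among genes outside the members, 3 inhibitors of JAK signalling had higher values in both Gata4 KO libraries. Socs1, the inhibitor induced by interferon itself, had 0.30 and 0.62 in Gata4 KO, against -0.41 and -0.30 in Control, a difference of 0.81 (standard error 0.24, limma adjusted p = 0.477). Ptpn2, a phosphatase of JAK1, had 0.30 and 0.38 in Gata4 KO, against -0.30 and -0.33 in Control (0.65, adjusted p = 0.533). Cish, a STAT5-induced inhibitor, had 0.25 and 0.39 in Gata4 KO, against -0.36 and -0.25 in Control (0.63, adjusted p = 0.557). These 3 of 14 tested genes of the JAK list were named because their unadjusted limma p was under 0.05 (21.4%, against 2.76% of all genes higher at that p). After adjustment 0 passed. The same 3 were the ones above both Control values (21.4%, against 15.7% of all genes), and 1 was below both (7.14%, against 17.3%). The gene below both was Socs2, lower by 0.27, and Socs3 overlapped at 0.03.

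Further interferon targets outside the members were counted from lists. Of 17 tested genes induced by interferon-gamma, Socs1 included, 15 had a difference below 0 (88.2%, against 51.1% of all genes), with a median of -0.28. Below both Control values were 8 (47.1%, against 17.3%), among them Ido1, a tryptophan-degrading enzyme gene, with -0.68 and -0.17 in Gata4 KO, against 0.90 and 0.17 in Control (-0.95, adjusted p = 0.587). Without Control 1 the Ido1 difference was -0.59, and without Control 2 it was -1.32, so single libraries set its size. Of 23 further type I targets, 14 were below 0 (median -0.029) and 5 below both Control values (21.7%). Slfn8, a Schlafen gene, was tied at its lowest value in both Gata4 KO libraries, against 0.60 and 0.68 in Control, and so at least 2.35-fold lower in Gata4 KO (adjusted p = 0.307). Of 15 sensing genes, 2 were above and 1 below both Control values (13.3% and 6.67%, against 15.7% and 17.3% of all genes), with a median of -0.029. By limma, 0 of these genes passed.

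Members with an ISRE core lay on both sides of 0. Among tested members with a promoter, the 22 with an ISRE core had a median difference of -0.018, with 3 above and 3 below both Control values (13.6% each, against 15.7% and 17.3% of all genes). The 29 without one had a median of -0.026, with 4 above and 5 below (13.8% and 17.2%). The 15 with a GAS core had a median of -0.026, with 3 above and 0 below (20% and 0%), and the 36 without one -0.0076, with 4 above and 8 below (11.1% and 22.2%). Of the 67 tested members, 51 had a matched promoter. Those without one include Zbp1, Ifi27l2a, Oas2, Gbp4 and Ifi204, all lower in Gata4 KO, and Usp18, which was higher. These genes are in none of the counts, which come from a small set and were not tested.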

How the data were processed

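RNA was measured by sequencing in 4 libraries of sorted cardiac endothelial cells, 2 Gata4 KO and 2 Control, grouped by the labels, which give no replicate numbers. Per the file headers, the deposited tables were exported by fold change, with Ensembl genes, split by direction, and the authors deposited log2 values per library with a log2 fold change per gene. Per the submitters' processing notes, reads were placed on mm10. For the aligner, counting, the unit before the logarithm and library scaling, the method is not given in the sources used here; depth is unknown, so no interval that needs counts was computed. In all 38087 genes the median of the 4 libraries was 0 within 1e-05. Equal values (tolerance 2e-06) were seen only at the lowest value of a gene (1011 genes tied in 2 libraries, 1565 in 3).

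Both tables were joined, and 14470 genes that varied were compared by limma 3.58.1 in R 4.3.3 (lmFit, eBayes without mean trend, two-sided, Benjamini-Hochberg adjustment over all 14470). The prior had 2.96 degrees of freedom beside 2 residual ones. The difference equalled the authors' deposited log2 fold change within 3e-07. The script was tested on simulated data. With 2 against 2 libraries an exact permutation test cannot go below 0.333. Coordinates are from GENCODE M21, which held 76 of the 78 members, and promoters are from RefSeq. The text names the 8 higher and 8 lower members with the smallest p, the IRF and STAT genes, the extremes of each family, the receptors and kinases, and list genes with an unadjusted p under 0.05. Other members are named to account for the whole set, and Isg15 was singled out after its values were seen. Single values of 2 tested members, and an alternative that moved genes between response groups, are not reported here. Members, response groups and lists were chosen with earlier results of these data known. Alternatives were a mean trend, genes without ties, library medians subtracted, quantile normalization, and each library left out.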

Additional observations from a re-analysis of the deposited data

How the results depend on the processing

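Over all genes, 27 passed an adjusted p of 0.05 with a mean trend, 51 without tied genes and 7 with library medians subtracted, against 0 as reported and 0 with quantile normalization or without any single library; no member passed in any of these. Members with an unadjusted p under 0.05 numbered 0 to 2 higher and 5 to 7 lower without single libraries, where all genes gave 379 to 1069 and 444 to 1547 of 14470. Of the 67 tested members, those without overlap numbered 18 to 20 higher and 21 to 29 lower with 3 libraries, where all genes gave 24.9% to 36.9% and 28.1% to 41.5%. The type I median ran from -0.062 to 0.03 and the type II median from -0.36 to -0.10 in these. The direction of Tyk2 turned with quantile normalization (0.023). Without single libraries, direction turned in these ranges: Irf1 -0.41 to 0.30, Irf2 -0.15 to 0.23, Irf3 -0.018 to 0.25, Irf7 -0.058 to 0.39, Stat2 -0.10 to 0.15, Stat3 -0.16 to 0.19, Oas1c -0.57 to 1.0, Ifngr1 -0.40 to 0.089, Ifngr2 -0.11 to 0.15, Jak1 -0.063 to 0.43, Jak2 -0.15 to 0.095 and Tyk2 -0.34 to 0.26. The cause was not tested. With 1 library left in a group, it is assumed to vary like the others. No paired analysis was possible because the labels give no replicate numbers. Unknown depth and 2 libraries a group limit every value.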
